A study of Mus musculus with 24 samples.

Results

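The late response of TM3 cells to a nanosecond pulsed electric field (nsPEF) was read from the arrays of cells harvested 24 h after treatment, 4 exposed to nsPEF and 4 sham-exposed, which were chosen by their sample titles as 8 of the 24 arrays of the series. TM3 is an established cell line of mouse Leydig cells, the cells of the testis that make testosterone from cholesterol. All cells were washed, resuspended in buffer and placed in electroporation cuvettes. The nsPEF cells received 80 pulses of 60 ns at an electric field of 14 kV/cm over 180 s, and the sham cells were sham-exposed. Complementary RNA (cRNA) with a Cy3 label was made from total RNA, and each sample had 1 array. The values are therefore those of whole cultures of 1 cell line, in which fewer cells of a kind and less RNA per cell cannot be told apart. The other arrays of the series are sham and nsPEF cells at 0 and 4 h.

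Pulses of this length open small pores in the plasma membrane and in the membranes of organelles, through which ions and water move. Cells that survive reseal the membrane within minutes to hours, and stress signalling and early response genes follow. Cholesterol is a main lipid of the plasma membrane and, in a Leydig cell, also the raw material of steroids.

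All 8 arrays lay on 1 slide, the sham arrays in its first row and the nsPEF arrays in its second, so that treatment and row cannot be told apart. The 75th percentile of the signal intensity was 288 to 359 in sham and 241 to 331 in nsPEF, and the groups overlapped (exact permutation test, two-sided, p = 0.171, n = 4 per group). In sham 60.0% ± 0.815 (SD, n = 4) of the probes were well above background and in nsPEF 55.6% ± 2.09, the negative control spots lay 0.79 higher in nsPEF on the log2 scale, and 71 to 112 spots per array were marked as not uniform in sham against 282 to 443 in nsPEF. Each of these 3 measures had no overlap between the groups (exact permutation test, p = 0.0286, the smallest that 4 against 4 arrays can give). The negative control spots, relative to the 75th percentile, were higher in nsPEF at the other times too. At 0 h they lay at -7.18 to -6.88 in sham and -6.86 to -6.15 in nsPEF. At 4 h they lay at -7.49 to -6.97 and -6.35 to -5.89. The share of probes well above background was lower in nsPEF at both times, with no overlap. The part of the 3 measures in the results was not tested.

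Of the Leydig cell markers, Star, Cyp17a1, Nr5a1, Scarb1, Gata4, Pdgfra and Nr2f2 were well above background on all 8 arrays. Hsd11b1 was so on 1 array. Probes for Cyp11a1, Hsd3b1, Hsd3b6, Hsd17b3 and Lhcgr, which stand for much of the testosterone pathway and the receptor for luteinizing hormone, did not pass the filter on dim probes. The summed signal of the Leydig markers, in units of the array's 75th percentile, was 44.1 to 47.8 in sham and 39.4 to 43.7 in nsPEF. It rested mainly on Pdgfra (29.1 to 33.1 in sham and 24.8 to 30.2 in nsPEF), while the other 7 tested markers summed to 13.91 to 14.94 in sham and 13.5 to 17.4 in nsPEF, and of the 7 markers well above background 5 had a difference above 0. The sum over 9 measured markers of myoid cells and fibroblasts was 472 to 490 in sham and 436 to 463 in nsPEF, and over 4 Sertoli cell markers, mainly Wt1, it was 30.4 to 33.8 and 25.7 to 30.6. The sums for macrophages (5 markers, 11.4 to 11.8 in sham and 10.4 to 12.2 in nsPEF), germ cells (7 markers, 1.17 to 1.28 and 1.10 to 1.28) and endothelial cells (1 marker, 0.159 to 0.210 and 0.183 to 0.218) overlapped between the groups. Star, which carries cholesterol into the mitochondrion, averaged -3.73 ± 0.21 (SD) on the 4 sham arrays and -3.66 ± 0.13 on the 4 nsPEF arrays on the log2 scale, a difference of 0.08 ± 0.14 (SE) that did not pass the test.

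At 24 h the changes were many and small. Genes of cholesterol synthesis, of the extracellular matrix and a few that respond to serum response factor and Yap were among those lower in nsPEF. A few genes of ribosome assembly, the proteasome and the antioxidant response were among those higher. Throughout, a level is the log2 signal minus the 75th percentile of its array, so that 0 is that percentile, and a difference is nsPEF minus sham. By limma, at an adjusted p under 0.05, 1815 of all 37684 tested probes were called (4.82%). Of the 27510 that were well above background on each of the 8 arrays, 1299 were called (4.72%), and these are the ones described first. Among them 575 were higher in nsPEF (2.09%) and 724 were lower (2.63%). The median difference was 0.47 among the higher and -0.29 among the lower, and 69 rose 2-fold or more while 3 fell by as much. No overlap between the 4 nsPEF and the 4 sham values was seen for 1041 of the called probes, and for 13.6% of all 27510. Counted as genes by their brightest probe, 284 of 13265 genes were higher (2.14%) and 467 were lower (3.52%), with a median difference over all genes of -0.004. At an unadjusted p under 0.05 the shares were 22.9% of these probes, and 11.4% higher and 14.3% lower of the genes.

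The calls took their error from all 24 arrays. Fitted on the 8 arrays of 24 h alone, 4 of these probes were called, and with the replicate number as a block 0 were. Left out one at a time, the arrays gave counts from 402 (without nsPEF replicate 4) to 3389 (without nsPEF replicate 1), with 411 without nsPEF replicate 2, 578, 431 and 446 without sham replicates 1, 2 and 3, and with the other two within 1.5 times. The direction of the calls leaned with the scaling: 44.3% of the calls were higher, against 55.3% with the percentile taken over the probes detected on every one of the 24 arrays, 29.8% under quantile normalization and 22.3% in the deposited log2 values. The 125 called genes that are named kept their sign under each alternative that gave them a value, which was 22 to 26 alternatives per gene. Genes named as called, many without overlap, could hardly change sign with an array left out, so this adds no support. Called genes were 114 to 935 on the lower side and 88 to 1000 on the higher side with an array left out, and the counts of the lists moved likewise. Where such counts follow one another below, they are those without nsPEF replicates 1, 2, 3 and 4 and then without sham replicates 1, 2, 3 and 4. In this order 123, 57, 103, 56, 69, 63, 64 and 112 of the 125 kept their call.

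**Figure D1:**
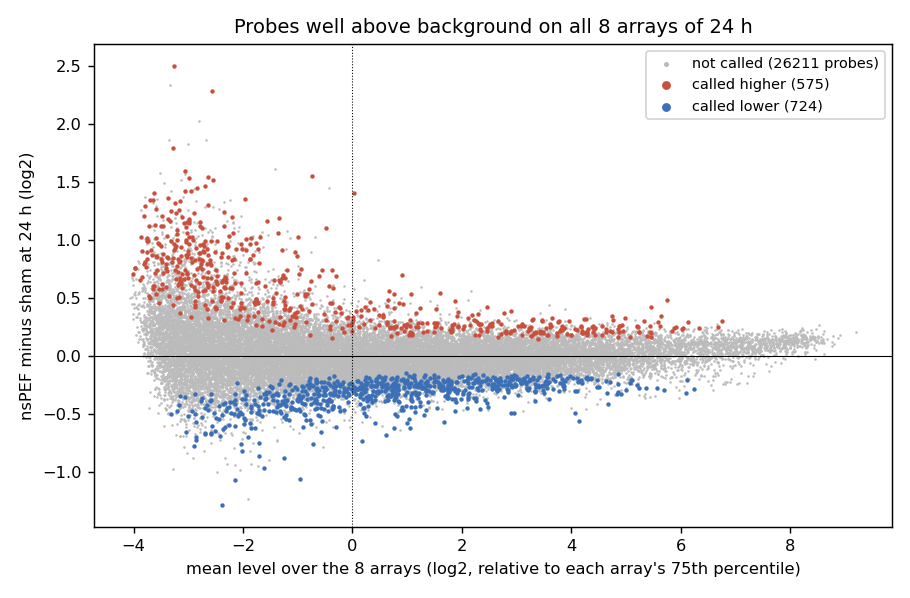
Difference between nsPEF and sham at 24 h (y axis, log2) against the mean level over the 8 arrays (x axis, log2 relative to each array's 75th percentile) for 27510 probes, each well above background on every array. The 724 probes called lower (blue) lie mostly at and above a level of 0, and the 575 called higher (red) include many dim probes with large differences.

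Among the lists plotted here, the cholesterol pathway had the highest share of lower genes. Of its 24 measured genes, 7 were called lower and 0 higher, beside 3.52% lower and 2.14% higher of all genes, and the median difference of the 24 was -0.14, beside -0.004 for all genes. Msmo1, the sterol methyl oxidase that removes methyl groups from sterols made from lanosterol, had levels of 5.49, 5.54, 5.52 and 5.48 on the sham arrays and 5.35, 5.16, 5.24 and 5.17 on the nsPEF arrays. The groups did not overlap, and the difference was -0.28 ± 0.05 (SE; adjusted p = 0.00593), with the second probe of the gene called lower as well. Tm7sf2, a sterol reductase of the same pathway, was -0.38, -0.30, -0.37 and -0.35 in sham against -0.48, -0.67, -0.57 and -0.81 in nsPEF. Every nsPEF array lay under every sham array, with a difference of -0.28 ± 0.06 (adjusted p = 0.0158). Lss, which closes squalene epoxide into lanosterol, fell by 0.24 on the log2 scale (adjusted p = 0.0479), and Fdft1, which makes squalene, by 0.17 (adjusted p = 0.0425). Nsdhl (fell by 0.21) and Sc5d (fell by 0.18) act late in the pathway. Stard4, a carrier of cholesterol, fell by 0.21 (adjusted p = 0.0353). None of the 7 overlapped between the groups. The list's median was negative under all 9 scalings, from -0.19 with spike-in scaling to -0.12 with rows centred, but the number of lower genes was 1 with spike-in scaling, 1 with normexp background correction and 11 in the deposited log2 values and with marked spots kept, and with an array left out it was 1, 2 and 1 without nsPEF replicates 2, 3 and 4 and 2, 1 and 2 without sham replicates 1, 2 and 3.

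The promoters of 3 of these genes are shown because the CCAAT box, to which the factor NF-Y binds beside the sterol-regulated factor SREBP, was found in each called gene of the pathway with a promoter entry. The sequences are those of RefSeq for GRCm38.p6, 250 bases before to 50 after the start of the gene, 5′ to 3′ on the gene's own strand, with CCAAT or its reverse complement ATTGG in capitals. Msmo1 is on the minus strand at chr8:64733529-64733828, Tm7sf2 on the minus strand at chr19:6067801-6068100 and Nsdhl on the plus strand at chrX:72918271-72918570.
Msmo1: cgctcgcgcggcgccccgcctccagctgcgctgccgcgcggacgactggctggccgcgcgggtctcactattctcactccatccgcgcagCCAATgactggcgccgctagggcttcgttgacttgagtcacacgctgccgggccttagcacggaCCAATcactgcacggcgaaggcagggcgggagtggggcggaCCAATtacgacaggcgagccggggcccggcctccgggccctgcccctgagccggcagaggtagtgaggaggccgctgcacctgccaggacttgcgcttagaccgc
Tm7sf2: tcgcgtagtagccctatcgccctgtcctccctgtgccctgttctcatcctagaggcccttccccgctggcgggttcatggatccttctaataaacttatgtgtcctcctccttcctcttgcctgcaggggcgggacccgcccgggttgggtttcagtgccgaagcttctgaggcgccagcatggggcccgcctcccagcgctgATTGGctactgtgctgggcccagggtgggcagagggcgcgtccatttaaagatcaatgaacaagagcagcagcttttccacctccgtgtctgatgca
Nsdhl: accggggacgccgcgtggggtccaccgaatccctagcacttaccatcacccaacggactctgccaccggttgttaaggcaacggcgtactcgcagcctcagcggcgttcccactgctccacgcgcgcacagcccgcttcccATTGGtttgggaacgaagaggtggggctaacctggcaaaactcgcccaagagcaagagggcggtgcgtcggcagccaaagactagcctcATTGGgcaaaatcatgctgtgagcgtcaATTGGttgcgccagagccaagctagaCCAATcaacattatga

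CCAAT, on either strand, was present in the windows of 5 of 5 called cholesterol genes with an entry (7 called) and of 16 of the 17 members of the list with an entry, beside 41.1% of all 27025 genes. The core of the sterol regulatory element, searched as CACCCCAC on both strands, was present in 0 of the 5 and in 1 of the 17, beside 3.30% of all genes. The E-box CACGTG was present in 1 of the 5 and in 5 of the 17, beside 8.09% of all genes. The members that were not called hold the CCAAT box as well, so the match describes the list and does not separate its called genes.

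Of 14 measured genes of fatty acid synthesis, 2 were called lower and 0 higher, beside 3.52% lower of all genes, with a median of -0.09. The 2 became 1 without sham replicate 2 and stayed 2 without each of the other arrays. Scd1, the desaturase that makes oleate, fell by 0.25 (SE 0.05; adjusted p = 0.0128), and Lpin1, the phosphatidate phosphatase on the path to triglyceride, fell by 0.38 (SE 0.08; adjusted p = 0.0118). Angptl4, a secreted inhibitor of lipoprotein lipase, was among the brighter genes that rose and was singled out after its values were seen. Its levels were 5.28, 5.19, 5.24 and 5.31 in sham against 5.49, 5.82, 5.55 and 5.84 in nsPEF. All 4 nsPEF arrays were above all sham arrays, and the signal was 1.34 times that of sham (difference 0.42 ± 0.07 SE; adjusted p = 0.00284).

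Among the lists plotted here, matrix genes had the second highest share of lower genes. Of 53 measured genes of the extracellular matrix, 10 were called lower and 1 higher, beside 3.52% lower and 2.14% higher of all genes. Their median was -0.11, beside -0.004 for all genes. Lox, the oxidase that crosslinks collagen and elastin, had levels of 4.45, 4.37, 4.50 and 4.32 in sham against 4.17, 3.72, 4.04 and 3.50 in nsPEF. Replicates 2 and 4 of nsPEF lay farthest from sham and replicate 1 nearest, with no overlap, and the difference was -0.56 ± 0.11 (SE; adjusted p = 0.00768). Both of its probes were called. Fmod, a small proteoglycan that binds collagen, was 0.99, 0.97, 1.05 and 1.12 in sham against 0.64, 0.27, 0.79 and 0.43 in nsPEF (difference -0.50 ± 0.09; adjusted p = 0.00467). Here, too, the arrays farthest from sham were nsPEF replicates 2 and 4. Nid2, a basement membrane protein, fell by 0.39 (adjusted p = 0.00571), Mmp13, a collagenase, by 0.45 (adjusted p = 0.0223), and Mmp10, Mmp2 and the proteoglycan decorin (Dcn) by 0.33, 0.28 and 0.29. The collagen genes Col4a5, Col6a1 and Col16a1 fell by 0.22, 0.20 and 0.15. The exception was Col7a1, anchoring fibril collagen, which rose by 0.43 (adjusted p = 0.0327). The median of the list was negative under all 9 scalings, and the count of lower genes ranged from 3 (without nsPEF replicate 4) to 14 (without nsPEF replicate 1), with 4 without nsPEF replicate 2, 4 without sham replicate 1, 4 without sham replicate 2 and 5 without sham replicate 3.

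Lists of Adamts proteases, of complement and of blood plasma proteins were drawn up after the values were seen. Their counts describe the lists only, and stand beside 3.52% lower and 2.14% higher of all genes. Of 8 measured genes for Adamts proteases, 2 were lower, Adamts4 (fell by 0.46) and Adamts1 (fell by 0.40), both of which cut proteoglycans of the matrix. Of 18 measured genes of the complement system 6 were lower and 0 higher. C1s1, a protease of the first complex of the classical pathway, was 4.88, 4.84, 4.86 and 4.89 in sham against 4.59, 4.36, 4.61 and 4.28 in nsPEF. The sham arrays lay close together and every nsPEF array was lower (difference -0.41 ± 0.06 SE; adjusted p = 0.00155). Its partner C1ra fell by 0.49 (adjusted p = 0.0146) and C3, the central component, by 0.31 (adjusted p = 0.0153). C1ra and C1rb are near copies, as are C1s1 and C1s2, and probes of such copies can share signal. Of 10 measured plasma and acute phase genes 7 were lower and 0 higher. Lbp, which binds bacterial lipopolysaccharide, fell by 0.86 (adjusted p = 0.0141), Hp, haptoglobin, by 0.54 (adjusted p = 0.0449), Trf, transferrin, by 0.51 (adjusted p = 0.0111), Lcn2, lipocalin 2, by 0.37 (adjusted p = 0.0223), and Cp, ceruloplasmin, by 0.37 (adjusted p = 0.00768). Hp and Trf overlapped between the groups, and 3 of the 4 probes for Cp were not called. With an array left out the lower complement genes numbered 6, 1, 6, 1, 4, 5, 3 and 5, the plasma genes 8, 3, 8, 3, 4, 5, 2 and 6, and the Adamts genes 4, 1, 2, 2, 2, 2, 2 and 2.

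**Figure D2:**
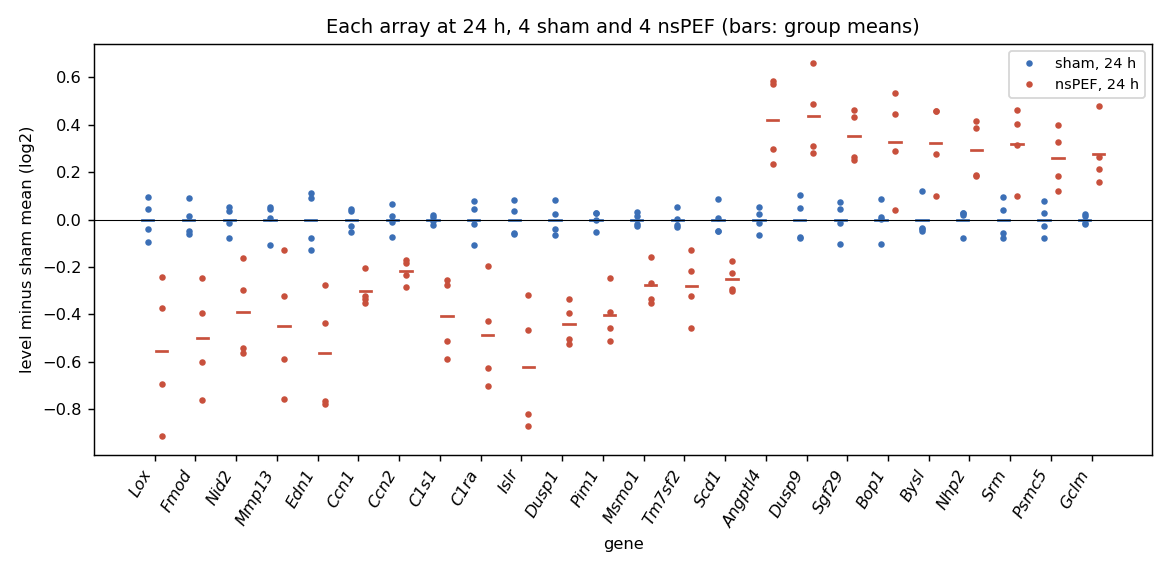
Level of 24 genes on each of the 8 arrays of 24 h, minus the sham mean of the gene (y axis, log2), with sham arrays in blue, nsPEF arrays in red and group means as bars. The nsPEF arrays spread more than the sham arrays for most of these genes, and the lowest nsPEF values of Lox, Fmod and Edn1 come from replicates 2 and 4.

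The spread was itself unequal between the groups. Over all probes well above background the median SD was 0.093 in sham and 0.122 in nsPEF, and the nsPEF SD was the larger one for 67.1% of them. Among probes called lower at a level of 0 or above, the median distance from the sham mean was -0.17 on nsPEF replicate 1, -0.30 on replicate 2, -0.23 on replicate 3 and -0.34 on replicate 4. For the probes called higher in that class it was 0.10, 0.33, 0.20 and 0.37 on the same arrays, so the order of the nsPEF arrays was the same for both directions.

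Genes that respond to serum response factor and Yap, which read tension in the actin cytoskeleton, held 4 lower and 0 higher among 27, beside 3.52% lower of all genes, with a median of -0.07. Ccn1, a matrix-bound signalling protein and a direct Yap target, had levels of 4.19, 4.17, 4.26 and 4.25 in sham against 3.88, 3.89, 4.01 and 3.87 in nsPEF. Its values were tight in both groups and did not overlap (difference -0.30 ± 0.04 SE; adjusted p = 0.00117). Ccn2, of the same family, fell by 0.22 (adjusted p = 0.0371), Fhl1, a LIM protein of the actin fibres, by 0.21 (adjusted p = 0.0301), and Edn1, endothelin 1, by 0.56 (adjusted p = 0.00553). In the TGF-beta and BMP list 3 of 21 genes were lower and 0 higher, with Ltbp2, which binds to matrix fibrils, and Bmp4, a ligand, falling by 0.27 and 0.22, and Fst, an antagonist of activin, by 0.30. The 4 lower genes of the first list became 6, 2, 3, 2, 3, 2, 2 and 4 with an array left out, and the 3 of the second became 4, 0, 4, 0, 1, 1, 1 and 4. Pdgfra and Pdgfrb, the receptors for platelet-derived growth factor, fell by 0.24 (adjusted p = 0.0410) and 0.33 (adjusted p = 0.0210). They also count as markers of Leydig cells and of myoid cells and are part of the sums given above, and without Pdgfra the sum of the Leydig markers overlapped between the groups.

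Single genes of growth signalling moved in both directions. Dusp1, a phosphatase that switches off MAP kinases, was 1.32, 1.38, 1.44 and 1.29 in sham against 1.03, 0.97, 0.86 and 0.83 in nsPEF (difference -0.44 ± 0.07 SE; adjusted p = 0.00313). No nsPEF array reached the lowest sham array. Pim1, a survival kinase, fell by 0.40 (adjusted p = 0.00117), and Islr, a secreted leucine-rich repeat protein of mesenchymal cells, by 0.62 (adjusted p = 0.00110). Egr2 of the immediate-early list fell by 0.42 (adjusted p = 0.0186). In contrast Dusp9, another MAP kinase phosphatase, rose by 0.43 (adjusted p = 0.00234), from 0.34 to 0.53 in sham to 0.70 to 1.08 in nsPEF. Of the 33 measured immediate-early genes 2 were lower and 0 higher, beside 3.52% lower and 2.14% higher of all genes. With an array left out 4, 2, 2, 1, 1, 1, 1 and 3 were lower. Fos was missing on 1 sham array because its spot was marked, and is therefore not among the 33. It averaged 0.61 ± 0.17 (SD) over 3 sham arrays and 0.13 ± 0.26 over 4 nsPEF arrays, with overlap (difference -0.49 ± 0.11 SE; adjusted p = 0.0215). Egr1 differed by -0.11 ± 0.07 and Jun by 0.09 ± 0.05, and neither passed the test.

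Other lists held few lower genes, and their shares are to be read beside 3.52% lower and 2.14% higher of all genes. Of 28 interferon response genes 3 were lower and 1 higher. The lower ones were the chemokine Cxcl10 (fell by 0.38), the transcription factor Irf7 (fell by 0.38) and the peptide transporter Tap1 (fell by 0.28), and the higher one was the immunoproteasome subunit Psmb10 (0.22). Of 43 genes of autophagy and the lysosome 3 were lower and 0 higher: Atp6v1a (fell by 0.24), Wipi1 (fell by 0.21) and Npc2 (fell by 0.21). Npc2 carries cholesterol out of the lysosome. Of 70 DNA repair genes 4 were lower and 0 higher: Rad51b, Neil3, Atr and Rad52. Their differences were -0.32, -0.29, -0.20 and -0.18, and the median of the list was -0.05. In the p53 list of 27 genes 2 were higher, Aen (0.23) and Phlda3 (0.26), and 2 were lower, Trp53inp1 (fell by 0.45) and Fas (fell by 0.21), so its called members were split. With an array left out the lower interferon genes numbered 4, 1, 4, 1, 1, 1, 1 and 2, those of autophagy and the lysosome 6, 1, 3, 1, 2, 1, 1 and 5, and those of DNA repair 7, 0, 1, 0, 0, 0, 0 and 2. In the p53 list 4, 0, 1, 0, 1, 0, 0 and 2 were then higher and 2, 0, 1, 0, 0, 0, 0 and 1 lower.

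On the higher side, the tubulin list, which is not plotted, had 3 of 15 genes higher and 0 lower, beside 2.14% higher and 3.52% lower of all genes. The 3 were Tuba4a (0.25), Tubb3 (0.34), whose groups overlapped, and Tuba3b (0.65), by a dim probe with a sham level of -4.20. The median of the list was 0.17 and fell to 0.06 under quantile normalization. With an array left out 6, 1, 2, 1, 1, 1, 1 and 5 tubulin genes were higher. Among the lists plotted here, ribosome assembly had the highest share of higher genes. Of 46 measured genes 6 were called higher and 0 lower, beside 2.14% higher of all genes, 21 were higher at an unadjusted p under 0.05 (11.4% of all genes were), and the median was 0.12. Bysl, which is needed for the small subunit, was 3.08, 3.09, 3.10 and 3.25 in sham against 3.23, 3.59, 3.41 and 3.59 in nsPEF. Replicate 1 of nsPEF fell just inside the sham range and the other nsPEF arrays were above it (difference 0.32 ± 0.06 SE; adjusted p = 0.00868). Nhp2, a core protein of the particles that modify ribosomal RNA, was 6.01, 5.90, 6.01 and 6.00 in sham against 6.17, 6.37, 6.16 and 6.39 in nsPEF. It did not overlap (difference 0.29 ± 0.06; adjusted p = 0.0118). Bop1 rose by 0.33, Rrp12 by 0.31, Rrp9 by 0.29 and Wdr12 by 0.21, all of them factors that process or assemble preribosomes. The median of the list was positive under all 9 scalings, from 0.07 with spike-in scaling to 0.13, and the number of higher genes ranged from 0 with spike-in scaling and 2 without nsPEF replicate 2 or 4 to 3 without sham replicate 1, 2 or 3 and 15 without nsPEF replicate 1.

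Other genes of protein synthesis and breakdown were called too, a few in each list. Srm, which makes spermidine, was 4.01, 3.99, 4.11 and 4.16 in sham against 4.17, 4.47, 4.38 and 4.53 in nsPEF, with no overlap (difference 0.32 ± 0.07 SE; adjusted p = 0.0164). Beside 2.14% higher of all genes, of 20 transfer RNA synthetases 2 were higher, Aars (0.25) and Wars (0.20), and 0 lower. Of 54 genes of translation initiation 3 were higher, Eif1ad (0.31), Eif3b (0.25) and Eif3i (0.18), and 1 was lower, the amino acid sensor kinase Eif2ak4 (fell by 0.20). Of 78 mitochondrial ribosome genes 3 were higher and 0 lower. In the proteasome, 4 of 40 genes were higher: the ATPase subunits Psmc5 (0.26), Psmc1 (0.24) and Psmc4 (0.24), and Psmb10. Psmd10, an assembly chaperone, was the 1 lower gene (fell by 0.23). These counts moved with single arrays. Left out in turn, the arrays gave 15, 0, 4, 0, 1, 0, 2 and 10 higher proteasome genes, 13, 0, 4, 0, 0, 0, 0 and 5 of the mitochondrial ribosome, 13, 1, 2, 1, 1, 1, 1 and 4 of translation initiation and 8, 0, 3, 0, 0, 0, 0 and 5 synthetases.

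Genes for cytosolic ribosomal proteins moved less clearly. Of 75 genes 71 lay above 0, beside 6485 of all 13265 genes, and the median was 0.11. Yet 0 were called higher and 1 was called lower (Rpl37, by a dim probe), beside 2.14% higher and 3.52% lower of all genes. The median turned to -0.01 under quantile normalization. The brightest probes as a class shared this shift: the median difference was 0.09 for genes at a level of 6 or above, against -0.05 for those from 0 to 2. The same held for the respiratory chain and ATP synthase, in which 0 of 77 genes were called by limma and the median of 0.05 turned to -0.003 under quantile normalization. At an unadjusted p under 0.05, 9 of the 77 were higher and 1 lower, beside 11.4% higher and 14.3% lower of all genes.

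Among genes of the antioxidant response driven by Nrf2, 3 of 28 were higher and 0 lower. With an array left out 5, 2, 1, 1, 1, 1, 1 and 2 were higher. The counts of this list and the next stand beside 2.14% higher and 3.52% lower of all genes. Gclm, the regulatory subunit of the enzyme that starts glutathione synthesis, was 2.55, 2.55, 2.58 and 2.59 in sham against 2.73, 2.83, 2.78 and 3.04 in nsPEF. All nsPEF arrays were above all sham arrays (difference 0.28 ± 0.05 SE; adjusted p = 0.00766). G6pdx, which makes the NADPH that recycles glutathione, rose by 0.22 (adjusted p = 0.0450), and the third was Gsta2, a dim glutathione transferase (0.87, adjusted p = 0.0467). In the integrated stress response Atf5 (0.23) and Shmt2 (0.17) were higher and Pycr1 was lower (fell by 0.27), of 29 genes, and the higher ones numbered 4, 0, 3, 0, 0, 0, 0 and 3 with an array left out. None of the 24 genes of the unfolded protein response and none of the 19 heat shock genes were called by limma, with 2 higher and 3 lower, and 3 higher and 0 lower, at an unadjusted p under 0.05. At that unadjusted p 11.4% of all genes were higher and 14.3% lower.

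Lists of repair and of the cell surface that a pulsed cell might call on held few calls. Their counts of calls stand beside 3.52% lower and 2.14% higher of all genes. Those at an unadjusted p under 0.05 stand beside 14.3% lower and 11.4% higher of all genes. Of 20 annexin and membrane repair genes, 19 ESCRT genes and 9 caveola genes, 0 were called by limma. At an unadjusted p under 0.05, 0, 4 and 0 of them passed. Cav1, caveolin 1, differed by 0.02 ± 0.07 (SE). Of 17 genes of the microvilli 1 was called, Podxl, which fell by 0.30 (adjusted p = 0.0429), and of 34 integrin and adhesion genes 0 were called, with 8 at an unadjusted p under 0.05. The replication genes (0 of 51, 10 unadjusted) and the mitosis genes (1 of 49, Mybl2, 0.31) held few calls too. B2m and Tubb5 differed by -0.22 ± 0.13 and 0.13 ± 0.08 and did not pass the test. The plasma membrane calcium pumps gave 2 calls, Atp2b1 (fell by 0.25) and the dim Atp2b2 (1.03).

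**Figure D3:**
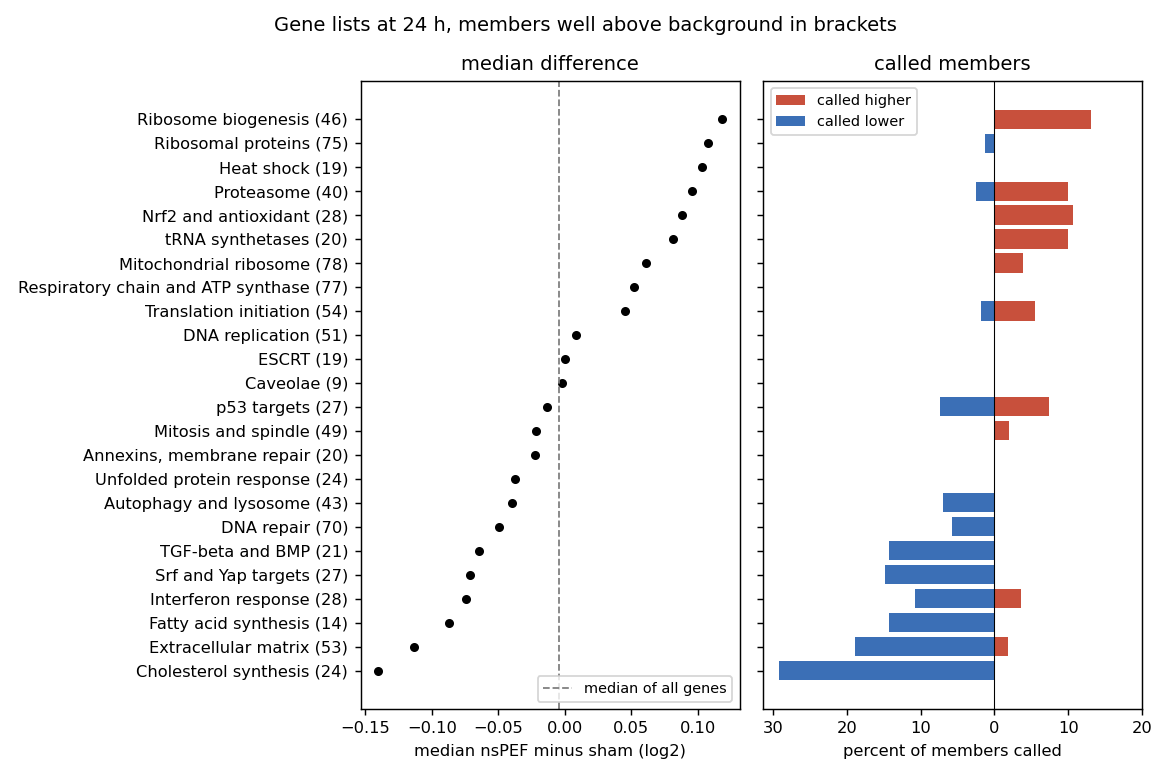
Median difference between nsPEF and sham at 24 h for 24 gene lists (left, log2, dashed line at the median of all genes) and the percent of their measured members called higher (red) or lower (blue) on the right. Cholesterol synthesis lies lowest at -0.14 with 29.2% of its members called lower, and ribosome biogenesis lies highest at 0.12.

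The largest differences came from dim probes and from particular places of the array. Kcnn1, a calcium-activated potassium channel, rose most among the called genes that were measured well on each array and did not overlap, from -3.71, -4.19, -4.08 and -3.43 in sham to a mean of -2.26 ± 0.23 (SD) in nsPEF, where the lowest array was at -2.50 (difference 1.60 ± 0.17 SE; adjusted p = 0.000117). Its other probe differed by 0.23 and was not called. The probe lies in row 339, in the lower part of the array. Tmem174 (1.55, row 13), Olfr1344 (1.42, row 335), Sema6a (1.42, row 116), Adgrf3 (1.37, row 317), Lhfpl5 (1.36, row 342), Gm2061 (1.35, row 332), Olfr704 (1.34, row 318), Acp5 (1.27, row 332), Cd164l2 (1.24, row 332), 4930528G23Rik (1.24, row 329) and 9130410C08Rik (1.21, row 103) were next. Olfactory receptors, the odour sensors of the nose, were called higher in 6 of 114 and lower in 0, beside 2.14% higher and 3.52% lower of all genes. The level of this list was -2.98, and of all 6663 probes with a mean level under -2, 243 were called higher. The median difference of the receptors, 0.23, fell to 0.003 when each row was centred. The 6 became 12, 4, 4, 6, 3, 3, 4 and 8 with an array left out.

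Place was measured directly for this reason. Among the 6663 probes with a mean level under -2, those in the corner beyond row 288 and column 105, marked out after seeing the data, were 8.58% of the class and 49.4% of its higher calls, with 120 called higher of 572. Among the 13937 probes at a level of 0 or above, the same corner held 8.93% of the probes and 13.8% of the higher calls. At that level 3.45% of the probes in rows 1 to 24 and columns 1 to 84 were called higher, against 1.40% outside both corners. In rows 265 to 288 and columns 85 to 105, 15 of 132 were called lower, against 3.38% outside both corners. This was 1 of 128 blocks and was picked out after seeing the data. When each block of 24 rows and 21 columns was centred in 3 signal classes, an alternative chosen after seeing the data, 95 of 243 dim higher calls were made again, against 157 of 218 higher and 275 of 453 lower calls at a level of 0 or above. The treatment arrays and the slide row cannot be told apart in these values.

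**Figure D4:**
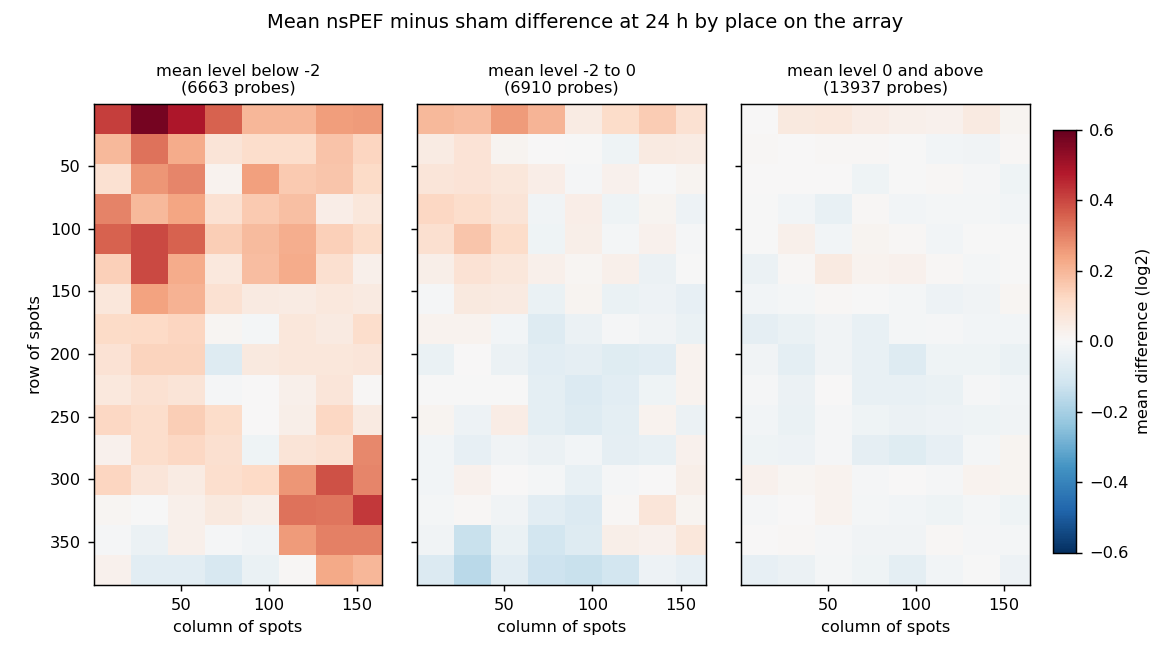
Mean difference between nsPEF and sham at 24 h (colour, log2) in blocks of 24 rows and 21 columns of spots, for probes with a mean level under -2 (left), from -2 to 0 (middle) and at 0 and above (right). Dim probes are higher in nsPEF at the upper left and the lower right of the array, where block means reach 0.57, and the block means of the bright probes run from -0.08 to 0.06.

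The largest falls with no overlap were Zfp12 (fell by 0.96, row 380), Lbp, Vsir (fell by 0.77), Zmat1 (fell by 0.75, row 376), Gpm6a (fell by 0.75), Zc3h6 (fell by 0.73), Rpl37 (fell by 0.67, row 377), Rab40b (fell by 0.67), Islr, Prg4 (fell by 0.62), Phyhd1 (fell by 0.62) and Gm8579 (fell by 0.61). Gpm6a, a membrane glycoprotein that drives filopodia, was -1.27, -1.32, -1.20 and -1.53 in sham against -1.73, -2.19, -2.06 and -2.33 in nsPEF (adjusted p = 0.000751). All its nsPEF values were under its sham values. Among the tested probes that were dim, or had no unmarked spot, on at least 1 array, 516 of 10174 were called (5.07%). Higher were 419 (4.12% of the 10174) and lower 97 (0.953%). The largest rises there were Nebl (row 10), Hnf1aos1 (row 5) and Wdr72 (row 12), which were not well above background on any sham array and were at least 12.9-fold, 11.2-fold and 7.63-fold higher in nsPEF, by 3, 4 and 2 arrays with a value. For such a bound the dim value on an array was raised to the lowest signal that this array measured above background. The largest falls were Gm26689 (row 382), Crem (row 379) and Nudt16 (row 380), of which the first pair were at least 1.94-fold and 1.58-fold lower by 3 sham arrays each, and Nudt16 was well above background on 2 sham arrays. Zfp750, in row 2, was not well above background on any sham array and on 2 nsPEF arrays, at least 1.72-fold higher (adjusted p = 0.0118).

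The 24 h differences were then set beside those of the earlier time points. Of the same 27510 probes 857 were called at 4 h (3.12%) and 28 at 0 h (0.102%), each against the sham arrays of its own time. Those called at both 4 and 24 h numbered 74, which is 5.70% of the 24 h calls and 8.63% of the 4 h calls, and 66 of them had the same sign. With 0 h, 4 were shared. A test of the difference itself, the interaction of treatment and time, called 83 of the 1299 as different from their 4 h effect. It called 72 as different from their 0 h effect. Of all 27510 it called 0.443% and 0.338%. The 1299 were picked by their 24 h difference, which is part of this test, so more of them pass by construction. Nothing is concluded from the larger share. The counts of 83 and 72 moved from 16 to 637 and from 19 to 1078 with an array left out. Both were highest without nsPEF replicate 1 of 24 h. The first moved by over 1.5 times without each array of 4 and 24 h except replicate 4 of sham at both times and of nsPEF at 4 h, and the second without each array of 0 and 24 h.

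Ccn1 was higher in nsPEF at 4 h, by 0.17 ± 0.04 (SE; adjusted p = 0.0342), and lower at 24 h, and its effects differed by -0.48 ± 0.06 (adjusted p = 0.00470). Dusp1 (0.25 ± 0.07 at 4 h, adjusted p = 0.0632), Mmp13 (0.25 ± 0.11, adjusted p = 0.192), Ndrg1, a hypoxia-responsive gene (0.24 ± 0.08, adjusted p = 0.0988), and Ccn2 (0.16 ± 0.06, adjusted p = 0.120) did not pass at 4 h but had a 24 h effect that differed from it, by -0.69, -0.70, -0.53 and -0.38. Msmo1 (fell by 0.36 relative to the 4 h effect, adjusted p = 0.0372), C1s1 (fell by 0.44, adjusted p = 0.0372) and Pim1 (fell by 0.43, adjusted p = 0.0284) also differed. For Lox, which had a difference of 0.00 ± 0.11 at 4 h, the interaction did not pass (adjusted p = 0.102). On the higher side Sgf29, a reader of methylated histones in the SAGA complex, differed from its 4 h effect by 0.41 ± 0.07 (adjusted p = 0.0258), and Bysl from its 0 h effect by 0.43 ± 0.09 (adjusted p = 0.0460). The cholesterol list had a median of 0.02 at 4 h and -0.03 at 0 h with 0 members lower at either time (2.89% of all genes were at 4 h and 0.0678% at 0 h), and ribosome assembly -0.01 and -0.02.

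**Figure D5:**
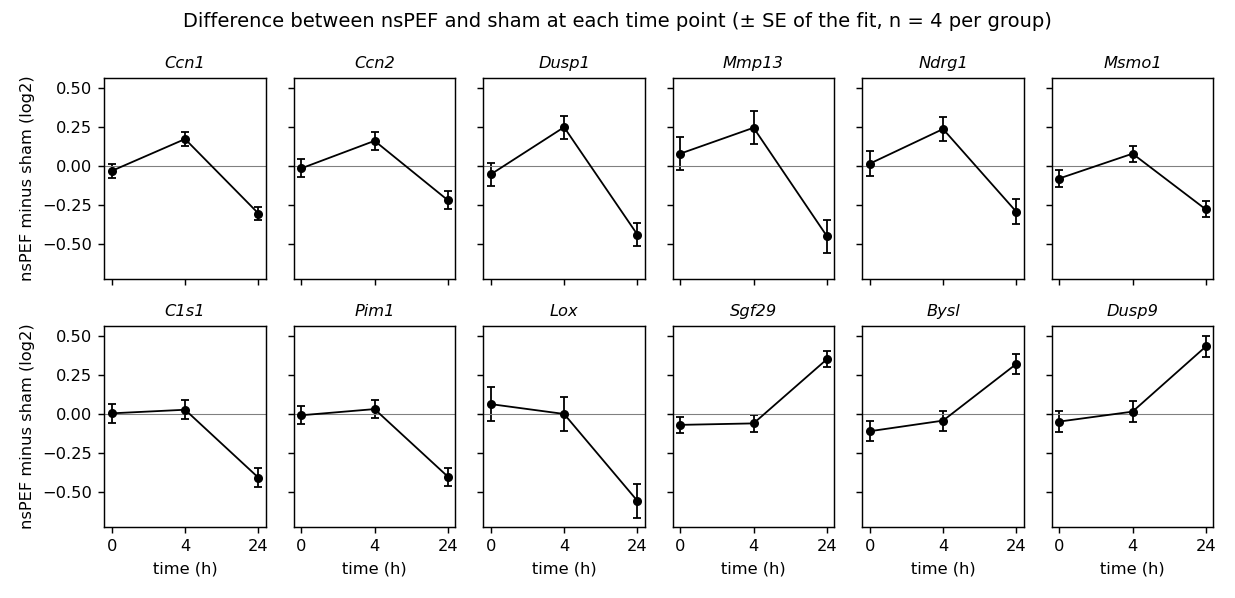
Difference between nsPEF and sham (y axis, log2, ± SE of the fit, n = 4 per group) at 0, 4 and 24 h (x axis) for 12 genes. Ccn1 is above 0 at 4 h and below 0 at 24 h, and C1s1, Pim1, Lox, Sgf29, Bysl and Dusp9 stay near 0 until 24 h.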

How the data were processed

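Per the labels and the paper's methods, the authors added spike-in RNA to total RNA and made Cy3-labelled cRNA from it. The cRNA was hybridized to SurePrint G3 mouse arrays and the scans were read with Agilent Feature Extraction 12.0. The deposited intensity of each spot is background-subtracted and detrended by that software and not scaled between arrays. A deposited table of log2 values, which the authors shifted to the 75th percentile and centred on the median of each probe, served as an alternative. All its columns were matched, with 0 left over.

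Here marked spots (not uniform or outlying) were left out, spots of a probe averaged, log2 taken and each array's 75th percentile over 56605 probes subtracted. No spot was saturated (0). A probe was tested where it was well above background on 2 of the 4 arrays of any group. A mean for each of 6 groups was fitted to 24 arrays by limma 3.58.1 (under R 4.3.3, with the package data.table in version 1.17.8), with Benjamini-Hochberg adjustment over 37684 probes and a threshold of 0.05. The methods used a two-way analysis of variance, so a fit without moderated variance was tried for the same 24 h differences. The treatment effect over all times was not tested here. Probes were named by accession through RefSeq for GRCm38.p6, which gave a symbol to 61.1%. A gene is its probe with the highest mean. Slide and time point cannot be told apart. The 4 replicates of a group are biological replicates per the methods, and the study ran its tests of a replicate side by side on 1 suspension of cells. Whether replicate numbers of the arrays mark such suspensions is not given in the sources used here, so p-values measure the spread between these samples, and a fit with the number as a block was an alternative. The number of arrays limits the precision. Differences are ± SE of the fit, levels ± SD.

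Genes are named by a rule: the 12 largest rises and 12 largest falls among called genes well above background on all 8 arrays without overlap, up to 4 called members per list and direction, the 3 largest dim rises and falls, and genes the paper names for its arrays. Others were named after their values were seen, among them Angptl4, Dusp9, Sgf29, Pim1, Dcn, Mmp2, C3 and Col4a5. Some genes are not reported here, and the lists and their counts leave them out. The members, lists and rule were chosen with earlier results of these data known, and the complement, plasma protein and Adamts lists after seeing the values. The procedure was tested on simulated data. The alternatives covered scaling, background correction, filters, array weights, place on the array, 8 arrays alone, a replicate block and each array left out.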

Additional observations from a re-analysis of the deposited data

Results flagged for a closer look

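One array stood apart from the other 3 of its group for 14 of 271 group values of named genes and of array measures. Chance alone gives about 1 in 20, a rate that genes chosen by their values need not follow. Sham replicate 4 did so for 7 genes, with log2 levels of 1.40 for Bst1, 5.20 for Mrps18b, 2.99 for Rrp12, 3.25 for Bysl, 5.91 for Aars, 1.19 for Tuba4a and 5.63 for B2m. Sham replicate 2 had 2.28 for Cp and 5.90 for Nhp2, and sham replicate 3 had 1.99 for Fhl1 and -3.17 for Lhfpl5. Among the nsPEF arrays replicate 2 had -5.27 for Crem and replicate 4 had -4.25 for Cacng5 and -1.87 for 9130410C08Rik.

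The treatment effect at 24 h differed from that at 4 h by the interaction test for 19 named genes. The 24 h effect minus the 4 h effect on the log2 scale was -0.44 for C1s1, -0.43 for Pim1, 0.41 for Sgf29, -0.48 for Ccn1, -0.38 for Ccn2, -0.36 for Msmo1, -0.70 for Mmp13, -0.53 for Ndrg1, -0.69 for Dusp1, 1.44 for Olfr1344, 0.88 for Tuba3b, -0.69 for Gpm6a, -0.88 for Zc3h6, -0.70 for Gm8579, 1.25 for Cd164l2, 1.47 for Acp5, 1.28 for Lhfpl5, 1.67 for Adgrf3 and 1.51 for Kcnn1. It differed from the effect at 0 h for 10 named genes, by -0.53 for Matn2, -0.41 for C1s1, -0.39 for Pim1, 0.42 for Sgf29, 0.48 for Dusp9, 1.27 for Olfr1344, 0.43 for Bysl, 1.28 for Acp5, 1.66 for Tmem174 and 1.65 for Kcnn1.

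The negative control spots, which match no mouse transcript, were 0.79 higher in nsPEF than in sham on the log2 scale at 24 h, with no overlap between the 4 arrays of each group (two-sided p = 0.0286 by an exact permutation test, which is the lowest that 4 against 4 can give). These spots were also higher in nsPEF, with no overlap, at 0 h and at 4 h. The part of this shift in the rises of dim probes was not tested.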

How the results depend on the processing

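Of the 125 called genes that are named, 0 changed sign under any alternative that gave them a value. Their choice as called genes largely fixed this in advance. Of the 125, 33 lost their call only with the 8 arrays alone and with the replicate block. Among these were Lox, Fmod, Nid2, Edn1, Ccn1, C1s1, Dusp1, Pim1, Islr, Msmo1, Angptl4, Dusp9 and Sgf29. The 8 arrays alone kept 2 calls, Nebl and Wdr72, normexp 59, spike-in scaling 60, block centring 92 and quantile normalization 116. Among the limits are the dim signal of many higher probes, 4 arrays per group, and a treatment that cannot be told apart from the slide row. Same-numbered arrays did not all deviate together: their deviations correlated at 0.229, -0.135, -0.0113 and 0.181, and with a replicate block the counts were 0 for all tested probes, for those well above background, for both time differences and for the lists of cholesterol, matrix and ribosome biogenesis genes.

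All tested probes gave 1815 calls (994 higher, 821 lower). They were 7046 with array weights, 3470 with rows centred (1012 higher, 2458 lower), 5853 with a floor for dim values, 8900 without a filter, 579 with normexp, 1165 in the middle rows, 27 with the 8 arrays alone, 700 with spike-in scaling, and 675 to 4161 with an array left out. Quantile normalization gave 796 higher and 1903 lower and the deposited values 836 and 1533. Probes well above background gave 1299 calls, and in the same order 5737, 2238, 2458, 2109, 532, 856, 4, 394 and 402 to 3389, with 2045 under quantile normalization (610 higher, 1435 lower), 740 and 599 with the percentile over probes detected on all 24 arrays, 405 and 1411 in the deposited table, 424 and 1412 with marked spots kept, and 513 and 938 with the percentile over spots, the last chosen after seeing the data. The difference from 4 h (83) became 150 by 1 probe per gene, 738 with weights, 165 with a floor, 21 without a filter, 157 without moderated variance, 0 with normexp, 198 with spike-ins and 16 to 637 with an array left out. The difference from 0 h (72) became 44 with the percentile over probes detected on all arrays, 46 over spots, 2277 with weights, 33 with rows centred, 31 without a filter, 6 with normexp, 134 with spike-ins and 19 to 1078 with an array left out. Lower cholesterol genes (7) numbered 11 in the deposited table, 11 with marked spots kept, 1 with normexp, 4 in the middle rows, 0 with the 8 arrays alone, 1 with spike-ins and 1 to 8 with an array left out. Lower matrix genes (10) numbered 18 with weights, 6 with blocks centred, 5 in the middle rows, 0 with the 8 arrays alone, 4 with spike-ins and 3 to 14 with an array left out. Higher ribosome biogenesis genes (6) numbered 11 by 1 probe per gene, 13 with the percentile over probes detected on all arrays, 15 with weights, 12 with a floor, 10 without a filter, 0 with the 8 arrays alone, 12 under quantile normalization, 0 with spike-ins and 2 to 15 with an array left out. Called genes of the respiratory chain and ATP synthase (0) numbered 1 by 1 probe per gene, 13 with weights, 4 with rows centred, 1 with a floor, 1 without a filter, 2 under quantile normalization and 0 to 8 with an array left out. Except where fewer arrays or probes were fitted, the cause was not tested.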

Other observations

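Among genes measured at a level of 0 or above, the 337 called lower at 24 h had a median gene length of 36.5 kb (GRCm38.p6), the 147 called higher 10.2 kb, and the 8403 that were not called 21.5 kb. Below that level the medians were 22.9 kb for 130 lower genes, 8.45 kb for 137 higher genes and 16.5 kb for 4111 others. The genes of a list and of a family share both length and regulation, so these medians are given as a description.

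Prl2c1, of the prolactin hormone family, was bright and rose by 0.48 ± 0.12 (SE; adjusted p = 0.0283), with 5.37, 5.45, 5.38 and 5.81 in sham against 5.62, 6.15, 5.97 and 6.21 in nsPEF. Sham replicate 4 lay inside the nsPEF range. Members of this family are close in sequence, and probes for them can share signal. Bst1 and Cd38, a pair of enzymes that consume NAD and make cyclic ADP-ribose, both fell, by 0.50 (adjusted p = 0.00513) and 0.37 (adjusted p = 0.0327), with no overlap between the groups. Exosc6, a subunit of the RNA exosome, rose by 0.33 (adjusted p = 0.0121), and its groups overlapped.

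Of the other genes named by the rule, Cntn4 (difference 1.38 ± 0.63 SE, adjusted p = 0.202), Cacng5 (1.23 ± 0.67, adjusted p = 0.285) and Piezo2 (0.55 ± 0.49, adjusted p = 0.532) were dim and did not pass the test at 24 h. Cntn4 and Cacng5 lie in rows 6 and 4 of the array.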
